A study of Mus musculus with 8 samples.

Results

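The genes described here are 10 genes of the fat cell, Adipoq, Cfd, Retn, Lep, Fabp4, Plin1, Plin4, Cidec, Lipe and Pparg, measured in 16 mouse mammary tumours. They were found as the non-control probes whose RefSeq accession belongs to one of these symbols, which gave 12 probes for all 10 genes among the 21154 genes named on the array. Of these genes, 9 passed the filter on dim probes and were tested among 14131 genes, and Lep did not. The tumours were MMTV-PyMT tumour pieces on the FVB background, in which the mouse mammary tumour virus promoter drives the polyoma middle T oncogene in mammary epithelium. They grew orthotopically, in the mammary gland of wild-type FVB hosts, and total RNA of tumour fragments was hybridised to 8 Agilent arrays of 2 colours, so that each tumour was read once, in Cy5 or in Cy3. RANK-Fc, a soluble decoy that captures the ligand of the receptor RANK, was injected intraperitoneally at 10 mg/kg, 3 times a week.

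The labels give 6 groups over 2 passages of the tumours. In passage 1 there were 3 tumours of RANK-Fc-treated hosts and 2 control tumours. In passage 2 there were 3 tumours with both neoadjuvant and adjuvant RANK-Fc (called prior and current here), 3 with adjuvant RANK-Fc alone (current), 3 with neoadjuvant RANK-Fc alone (prior) and 2 control tumours. The group codes are read here as neoadjuvant treatment falling in passage 1, which no label states outright. What the control hosts received, the hosts' age, and the passage 1 tumour behind each passage 2 tumour are not given in the sources used here. Each tumour carries its own animal code, and replicate numbers below only name tumours.

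The mammary gland lies in a fat pad, so a tumour piece cut from it can carry host adipocytes, and the genes of these cells are read together with those of the tumour. Adipocytes store triglyceride in 1 large droplet, coat it with perilipins, release fatty acids from it through lipases, and secrete hormones such as adiponectin and leptin. The nuclear receptor encoded by Pparg switches on most of this programme. Several of the genes are also active outside fat: Fabp4 in capillary endothelium and macrophages, and Pparg in macrophages and epithelia. In bulk tissue, fewer cells of a type and less RNA per cell cannot be told apart.

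Luminal epithelium was read in every piece: all 8 luminal genes, Epcam and Krt18 among them, were above background in every tumour. Their mean level stayed between -0.16 and 0.22 of its average on the log2 scale. These genes do not tell tumour from normal luminal epithelium, so the tumour label itself was not tested. Between 47.5% and 56.5% of the spots in a channel were well above background, and no spot was saturated. Of the 16 tumours, 2 stood apart in the adipocyte genes, passage 1 control 1 and passage 1 RANK-Fc 1, and 2 others stood apart in skeletal muscle genes. Where leaving 1 of these 4 out moved the genes' median difference by over 1.5 times or turned its sign, the value without it is given below. All levels are normalised log2 intensities of a probe, differences are on the same log2 scale, and levels of different genes were not set against each other.

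Among the secreted products, Adipoq encodes adiponectin, a hormone made by fat cells. Adipoq had levels of 9.75, 7.66 and 7.98 in passage 1 RANK-Fc tumours, against 11.17 and 8.12 in passage 1 controls. In passage 2, Adipoq had 8.18, 7.90 and 9.16 in prior and current tumours, 8.21, 8.03 and 6.87 in current tumours and 6.67, 7.18 and 8.06 in prior tumours, against 8.51 and 6.75 in controls. Passage 1 control 1 stood highest and prior tumour 1 lowest, 22.5-fold apart. In the 6 pairs of groups compared below the Adipoq levels overlapped.

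Cfd encodes complement factor D, also called adipsin, a serine protease of the alternative complement pathway that fat cells secrete. Cfd had levels of 13.72, 11.20 and 11.43 in passage 1 RANK-Fc tumours, against 13.91 and 11.65 in passage 1 controls. In passage 2, Cfd had 12.29, 11.51 and 13.22 in prior and current tumours, 11.72, 12.06 and 8.73 in current tumours and 9.09, 10.52 and 12.27 in prior tumours, against 13.01 and 9.19 in controls. The spread was 36.4-fold over the 16 tumours, and 3 of the 4 passage 2 groups held both a tumour above 12 and another below 9.2. Current tumour 3, prior tumour 1 and passage 2 control 2 formed the low end.

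Retn encodes resistin, which in mice is a product of fat cells. Retn had levels of 9.84, 7.18 and 7.97 in passage 1 RANK-Fc tumours, against 10.13 and 7.43 in passage 1 controls. In passage 2, Retn had 7.66, 7.79 and 8.46 in prior and current tumours, 8.32, 8.10 and 6.68 in current tumours and 6.97, 7.29 and 7.91 in prior tumours, against 8.64 and 6.88 in controls. The same 2 passage 1 tumours were high, and the other probe of Retn followed this one with r = 0.99 over the 16 tumours.

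Lep encodes leptin, the hormone that reports fat stores to the brain. Its probe, spotted 10 times on each array, was well above background in 1 of 16 tumours, passage 1 control 1, at 7.28. In the other tumours Lep read between 6.10 and 6.48, not well above background, and the second highest reading was that of passage 1 RANK-Fc 1. Lep was therefore not tested.

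Among the genes of fatty acid handling, Fabp4 encodes the fatty acid binding protein of the adipocyte cytosol. Fabp4 had levels of 13.18, 11.43 and 11.51 in passage 1 RANK-Fc tumours, against 14.44 and 11.61 in passage 1 controls. In passage 2, Fabp4 had 12.14, 11.41 and 12.82 in prior and current tumours, 11.62, 12.06 and 11.58 in current tumours and 10.53, 10.89 and 11.62 in prior tumours, against 12.46 and 10.67 in controls. Current tumour 3, among the lowest in Adipoq, Cfd and Retn, lay close to the other current tumours in Fabp4.

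Plin1 and Plin4 encode perilipins, proteins of the lipid droplet coat, and perilipin 1 guards the large droplet of the fat cell against lipases. Plin1 had levels of 8.20, 6.85 and 6.98 in passage 1 RANK-Fc tumours, against 9.03 and 6.81 in passage 1 controls. In passage 2, Plin1 had 7.08, 6.71 and 7.69 in prior and current tumours, 6.91, 6.89 and 6.27 in current tumours and 6.21, 6.52 and 6.83 in prior tumours, against 7.38 and 6.41 in controls. Plin1 was well above background in 13 of 16 tumours, and the 3 tumours below that mark were current 3, prior 1 and passage 2 control 2.

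Plin4 had levels of 10.23, 8.76 and 8.66 in passage 1 RANK-Fc tumours, against 11.47 and 8.43 in passage 1 controls. In passage 2, Plin4 had 8.55, 7.88 and 9.57 in prior and current tumours, 8.49, 8.57 and 6.96 in current tumours and 7.34, 7.81 and 8.44 in prior tumours, against 8.90 and 7.23 in controls. The lowest tumour in Plin4, current 3, lay 22.9-fold below passage 1 control 1.

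Cidec encodes a droplet protein that fuses small droplets into large ones. Cidec had levels of 9.97, 7.97 and 7.81 in passage 1 RANK-Fc tumours, against 10.45 and 7.59 in passage 1 controls. In passage 2, Cidec had 8.19, 7.44 and 8.90 in prior and current tumours, 7.88, 8.08 and 6.52 in current tumours and 6.79, 6.95 and 8.09 in prior tumours, against 8.58 and 6.84 in controls. The level in current tumour 3 was not well above background. A dimmer probe of Cidec, above background in 7 tumours, followed the one used here with r = 0.89 but spanned 1.70 log2 units where that one spanned 3.93.

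Lipe encodes hormone-sensitive lipase, which breaks down stored triglyceride and is also found in steroid-producing tissue and muscle. Lipe had levels of 7.08, 6.69 and 6.86 in passage 1 RANK-Fc tumours, against 7.07 and 6.89 in passage 1 controls. In passage 2, Lipe had 7.19, 7.0 and 7.71 in prior and current tumours, 7.26, 7.50 and 7.13 in current tumours and 6.76, 7.04 and 7.37 in prior tumours, against 7.31 and 7.28 in controls. Its whole range was 1.02 log2 units, its highest tumour was prior and current 3, and the 2 tumours highest in the other genes lay in its middle at 7.08 and 7.07.

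Pparg, the transcription factor gene of the set, had levels of 8.56, 7.46 and 7.84 in passage 1 RANK-Fc tumours, against 9.01 and 7.55 in passage 1 controls. In passage 2, Pparg had 7.75, 7.27 and 7.79 in prior and current tumours, 7.56, 7.69 and 7.58 in current tumours and 7.17, 7.26 and 7.37 in prior tumours, against 7.73 and 7.35 in controls. The same 2 passage 1 tumours were highest, and current tumour 3 lay with its group, as it did in Fabp4. The plot of the 10 genes by tumour shows these values group by group.

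**Figure D1:**
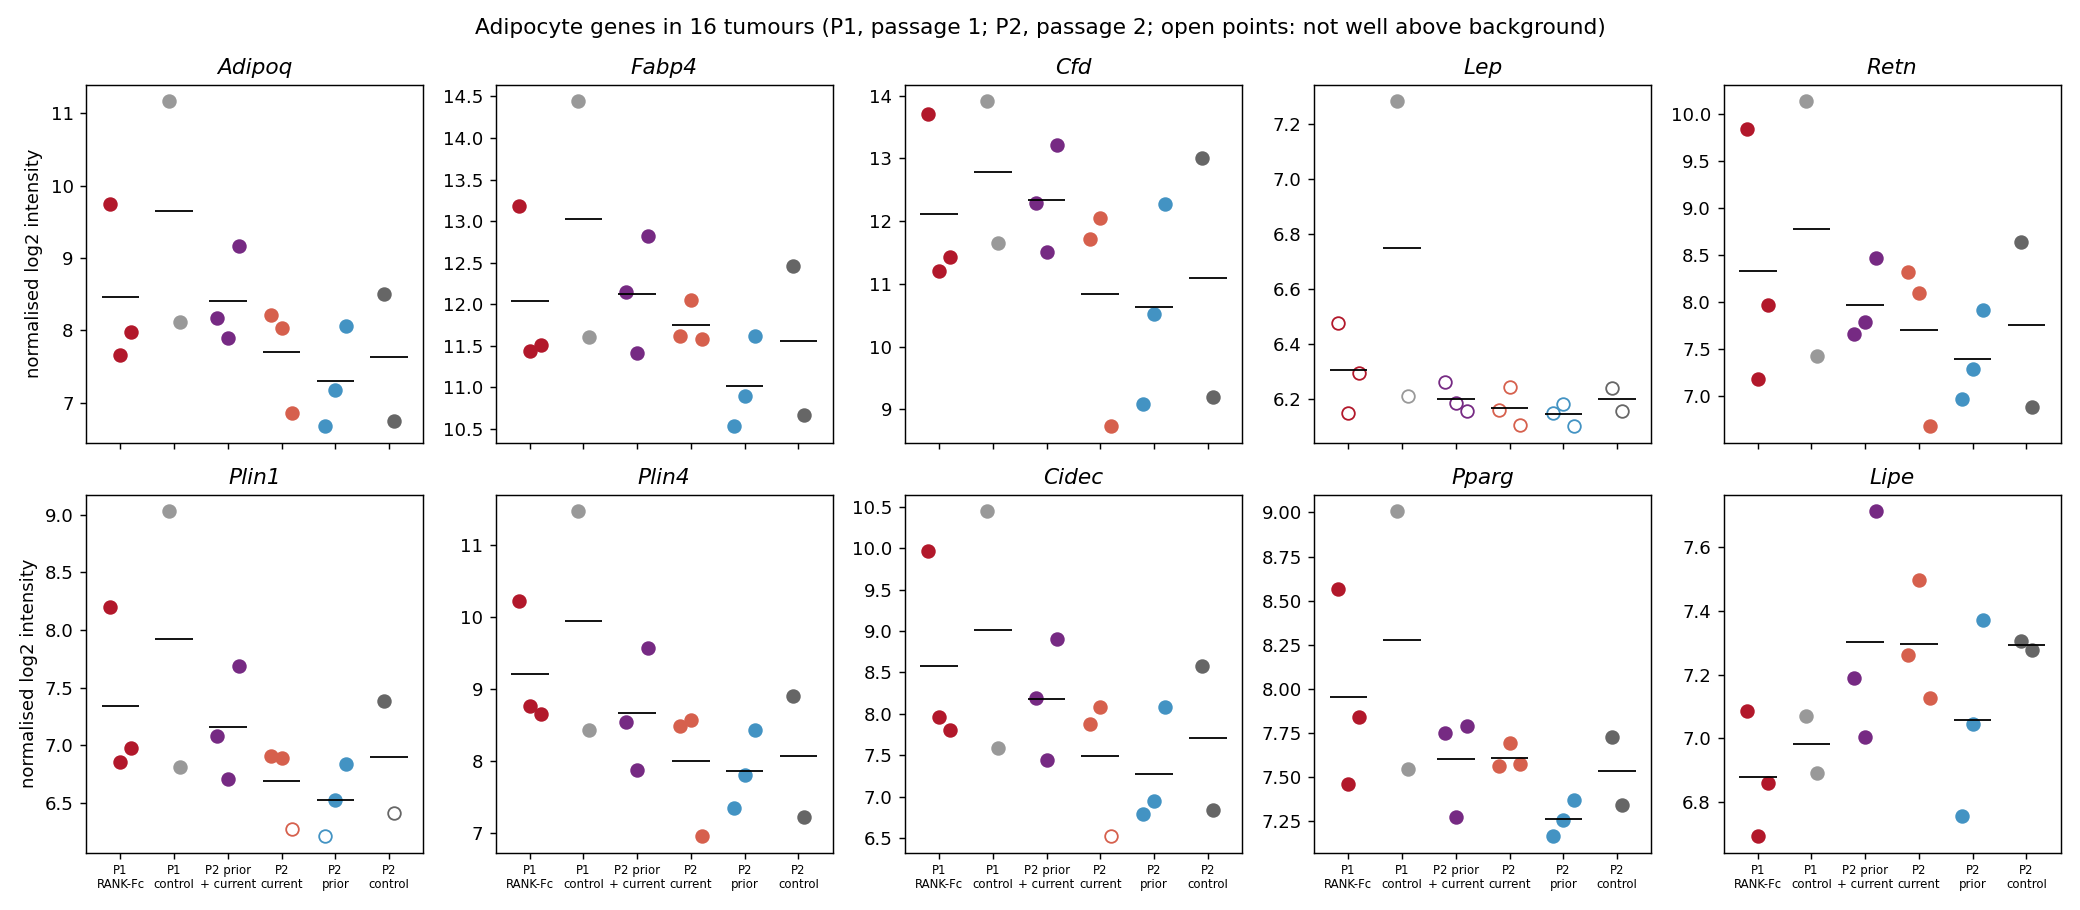
Normalised log2 intensity of each of the 10 adipocyte genes (one panel each, with its own axis) in the 16 tumours, by group; points are tumours, lines are group means, and open points were not well above background. In 9 of 10 genes passage 1 control 1 is the highest point, and Lep is above background in that tumour alone.

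To follow the genes together, each tested gene was centred on its mean over the 16 tumours and the 9 centred levels were averaged per tumour. This mean was 1.39, -0.31 and -0.11 in passage 1 RANK-Fc tumours, against 2.08 and -0.21 in passage 1 controls. In passage 2 it was 0.11, -0.34 and 0.81 in prior and current tumours, -0.0041, 0.11 and -1.08 in current tumours and -1.16, -0.73 and -0.0061 in prior tumours, against 0.50 and -1.05 in controls. It spanned 3.24 log2 units, and 67.0% of its variance lay within groups, with a pooled SD of 0.881 between tumours of a group. With so few tumours per group, part of the variance lies between group means even where groups do not differ. The share alone therefore shows no group effect. Group means with their SD were 0.325 ± 0.929 (n = 3) for passage 1 RANK-Fc and 0.931 ± 1.62 (n = 2) for passage 1 controls. In passage 2 they were 0.194 ± 0.583 for prior and current, -0.325 ± 0.654 for current and -0.633 ± 0.585 for prior tumours (n = 3 each), against -0.273 ± 1.09 for controls (n = 2).

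The genes moved together from tumour to tumour. Each gene's r with the mean of the other members over the 16 tumours was 0.985 for Adipoq, 0.985 for Cidec, 0.977 for Plin1, 0.969 for Plin4, 0.951 for Retn, 0.946 for Fabp4, 0.896 for Cfd and 0.882 for Pparg, but 0.256 for Lipe. These are descriptions over tumours of 6 groups that share arrays, and genes read on the same arrays are not independent of each other. Without the 2 highest tumours, r was 0.975 for Adipoq, 0.950 for Cfd, 0.874 for Fabp4, 0.685 for Pparg and 0.528 for Lipe. In the 11 passage 2 tumours alone, r was 0.984 for Adipoq, 0.882 for Fabp4, 0.730 for Pparg and 0.731 for Lipe. The 28 pairs of genes without Lipe had r between 0.70 and 0.98, with a median of 0.93.

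In current tumour 3 the genes parted: relative to their own averages, Cfd stood at -2.86, Plin4 at -1.62 and Adipoq at -1.27, but Fabp4 at -0.29 and Pparg at -0.11. Lipe stood at -0.01 there, but also lay near its average in passage 1 control 1 (-0.06) and passage 1 RANK-Fc 1 (-0.05). In current tumour 3 the 12 fibroblast markers averaged 1.47 and the 9 tested macrophage markers 0.72 above their means, the highest of all 16 tumours in both lists. The part of these cells in the levels of Fabp4 and Pparg was not tested.

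The promoters of the genes are shown as background, because PPAR gamma and C/EBP proteins are the known regulators of the fat cell programme. A part of the promoters in the shared variation of the levels was not tested. The windows of Lipe and of Lep, which was not tested, are included because both belong to the set. RefSeq promoter windows of GRCm38.p6, 300 bases each and mostly upstream of a start, were at hand for 9 of the 10 genes, with 13 starts in all, and not for Fabp4. The 4 printed windows run 5′ to 3′ on the gene's strand: Adipoq chr16:23146286-23146585 (plus), Plin1 chr7:79732727-79733026 (minus), Lep chr6:29059971-29060270 (plus) and the third Pparg start chr6:115421816-115422115 (plus). Capitals mark matches, on either strand, to the C/EBP core TTGCNNAA or to CCAAT.
Adipoq: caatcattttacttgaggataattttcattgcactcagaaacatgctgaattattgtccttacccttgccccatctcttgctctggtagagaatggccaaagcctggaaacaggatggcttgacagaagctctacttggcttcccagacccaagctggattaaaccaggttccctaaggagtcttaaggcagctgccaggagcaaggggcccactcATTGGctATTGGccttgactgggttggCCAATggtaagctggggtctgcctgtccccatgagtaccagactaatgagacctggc
Plin1: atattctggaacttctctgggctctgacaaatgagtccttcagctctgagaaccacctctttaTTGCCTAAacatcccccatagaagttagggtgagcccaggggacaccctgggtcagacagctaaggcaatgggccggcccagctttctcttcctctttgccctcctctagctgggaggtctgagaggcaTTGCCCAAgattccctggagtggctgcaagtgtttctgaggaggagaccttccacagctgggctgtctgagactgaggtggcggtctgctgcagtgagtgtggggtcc
Lep: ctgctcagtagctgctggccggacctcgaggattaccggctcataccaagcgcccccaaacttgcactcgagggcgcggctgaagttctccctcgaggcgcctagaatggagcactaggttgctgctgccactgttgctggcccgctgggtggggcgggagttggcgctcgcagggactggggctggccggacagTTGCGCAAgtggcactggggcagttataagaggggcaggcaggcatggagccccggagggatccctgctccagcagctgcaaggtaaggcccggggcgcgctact
Pparg, start 3: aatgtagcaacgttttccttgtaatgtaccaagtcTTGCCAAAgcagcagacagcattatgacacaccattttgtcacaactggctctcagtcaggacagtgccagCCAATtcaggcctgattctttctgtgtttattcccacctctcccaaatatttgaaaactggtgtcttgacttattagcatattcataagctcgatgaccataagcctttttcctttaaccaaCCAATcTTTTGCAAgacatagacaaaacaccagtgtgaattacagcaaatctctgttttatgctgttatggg

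The C/EBP letters were found in 4 of the 13 windows, in Lep once, in Plin1 at 2 places, at 1 of the Cidec starts and at 2 places of the third Pparg start, while 10.8% of the 32851 mouse promoter windows of the same length hold them. CCAAT was found in 4 of the 13 windows, against 37.4% of all windows, and Adipoq holds it at 3 places. AGGTCA, the core that PPAR and RXR each bind, occurred in 2 of the 13 windows, both of Pparg, against 16.3% of all windows. Its direct repeat with a single base between the copies occurred in none of the 13 and in 0.0396% of all windows, and TATAAA in 1 of the 13 and in 13.6% of all. In the 13 windows no match overlapped a match of another motif, and a match of letters is not a bound site.

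By a rule that took the 12 tested genes outside the set with the highest r with the mean of the members, many of the genes most like the set were further genes of the fat cell. First came Adrb3, the beta-3 adrenergic receptor of adipocytes (r = 0.956), Mrap, an accessory protein of melanocortin receptors (0.946), Car3, carbonic anhydrase 3 (0.943), Rbp4, the retinol carrier that fat secretes (0.941), and Tmem45b (0.934). Next came Slc2a4, the insulin-regulated glucose transporter (0.923), the amino acid transporter Slc36a2 (0.918), Pck1, an enzyme of glycerol synthesis in fat (0.915), Dgat2 and Gpat3, enzymes of triglyceride synthesis (0.913 and 0.888), Nnat (0.861) and Glb1l2 (0.842). Over the 11 passage 2 tumours their r lay between 0.716 for Glb1l2 and 0.935 for Mrap. Together with the 8 members other than Lipe these genes took ranks 1 to 20 of 14131 tested genes, with each member counted in the mean it was ranked by. Over all tested genes the middle value of r was 0.03, with 5th and 95th percentiles of -0.42 and 0.47. Lipe ranked 2520. Adrb3, for example, had 7.81, 6.64 and 6.83 in passage 1 RANK-Fc tumours, against 8.86 and 6.57 in passage 1 controls, and 8.01 in prior and current tumour 3.

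**Figure D2:**
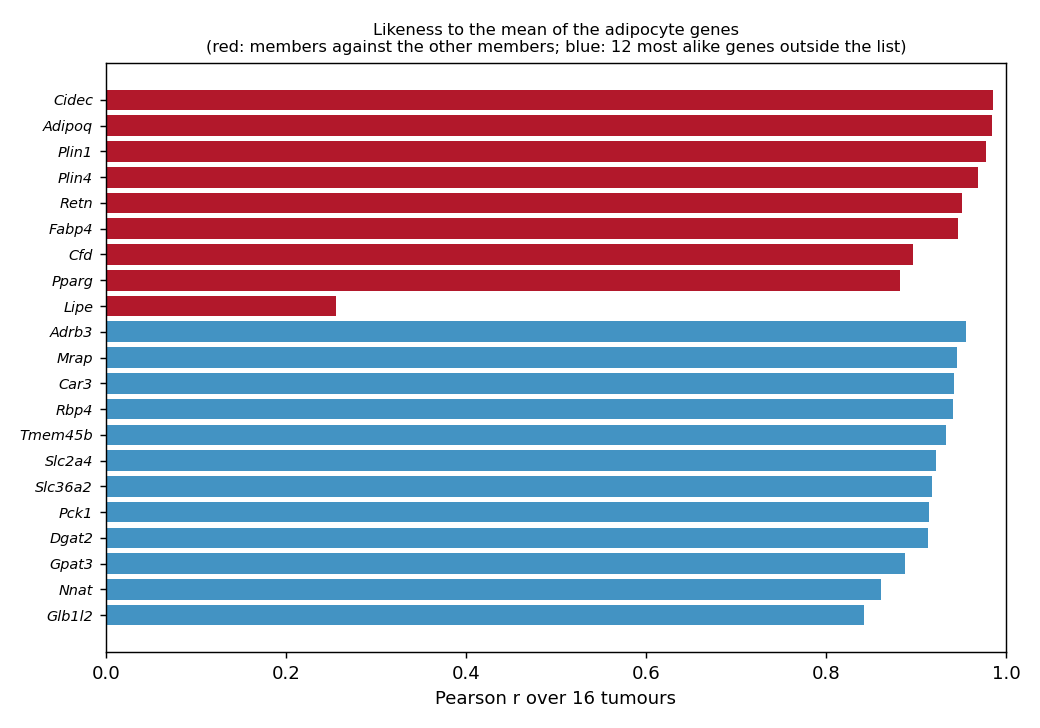
Pearson r over the 16 tumours with the mean of the adipocyte genes: red bars, the 9 tested members, each against the mean of the other members; blue bars, the 12 genes outside the set with the highest r. All bars but that of Lipe (0.256) lie above 0.84.

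Markers of other cells that a tumour piece or a fat pad can hold were followed in 13 lists. Over the 16 tumours, the r of a list's mean with the mean of the adipocyte genes was highest for basal epithelium at 0.46 over 6 markers and lowest for skeletal muscle at -0.57 over 5. It was 0.34 for Schwann cells, 0.27 for T and NK cells, 0.20 for luminal epithelium, 0.08 for fibroblasts, 0.05 for endothelium, 0.03 for macrophages and -0.14 for milk genes. The lists with r below that were erythroid cells at -0.30 and neutrophils at -0.32, with skeletal muscle lowest. Over the 11 passage 2 tumours r was 0.01 for basal epithelium, 0.55 for luminal epithelium, -0.40 for fibroblasts, -0.51 for erythroid cells, -0.55 for neutrophils and -0.66 for skeletal muscle. Each of the 5 muscle markers had a negative r, and the other 7 of that list did not pass the filter on dim probes. The muscle list stood at 1.63 in prior tumour 1 and at 0.84 in current tumour 3, the 2 tumours lowest in the adipocyte genes, and between -0.32 and 0.19 in the other 14. Acta1, the actin of skeletal muscle, read 10.48 in prior tumour 1 and 9.50 in current tumour 3, against 7.20 at most elsewhere. Passage 2 control 2, the next lowest tumour in the adipocyte genes, had a muscle mean of -0.05 and a fibroblast mean of -0.92. The part of these tissues in the adipocyte values was not tested.

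**Figure D3:**
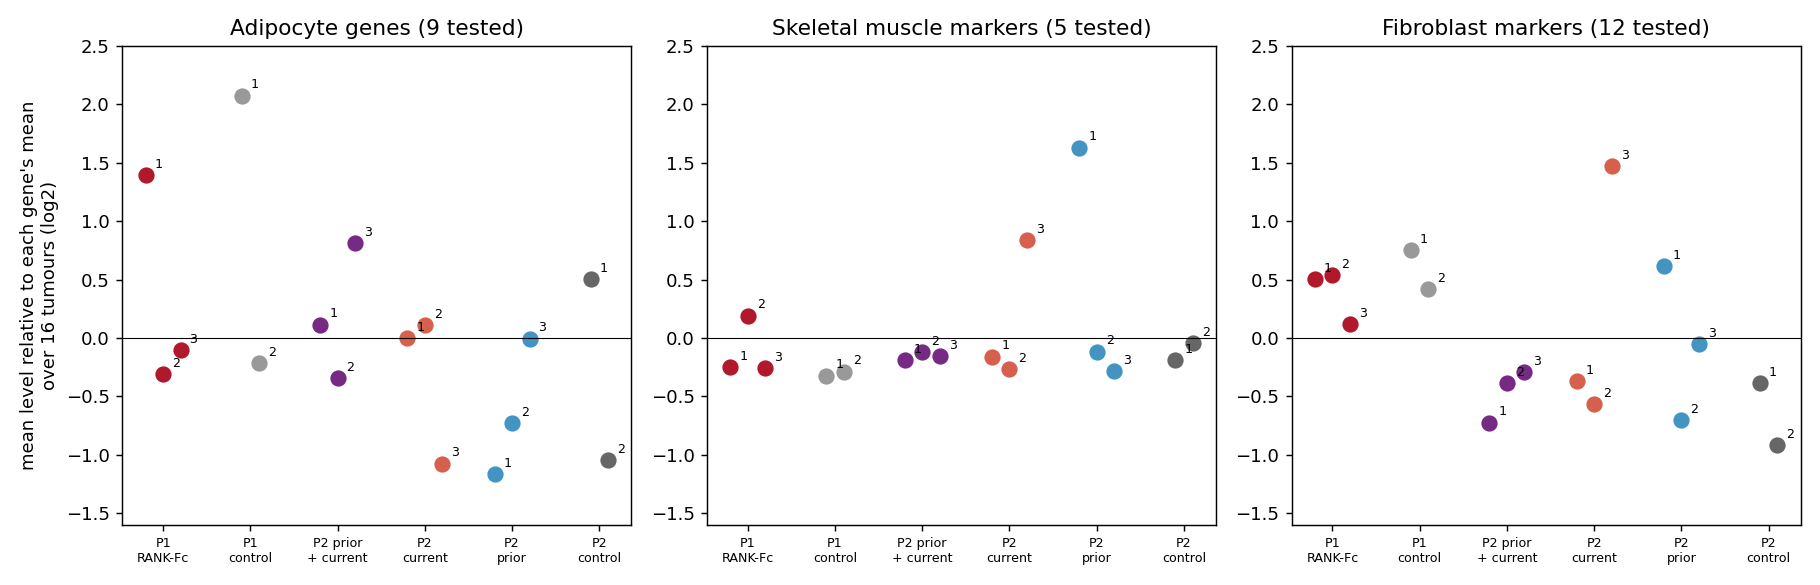
Mean centred log2 level per tumour of the 9 tested adipocyte genes (left), 5 tested skeletal muscle markers (middle) and 12 fibroblast markers (right), by group; the small numbers name the replicate. Passage 1 control 1 (2.08) and RANK-Fc 1 (1.39) are highest for fat, and prior 1 and current 3 are highest for muscle and lowest for fat.

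The first comparison asks whether RANK-Fc moved the adipocyte genes in passage 1. All 9 tested genes were lower on average in passage 1 RANK-Fc tumours than in passage 1 controls, by a median of -0.49, where the median of all genes was -0.01. The genes other than Lipe rise and fall together in the same few tumours. A sign shared by all 9, here or in the comparisons below, is therefore not 9 separate observations. Adipoq differed by -1.15 ± 0.69 (SE, 95% interval -2.65 to 0.34), Fabp4 by -0.91 ± 0.63 and Plin4 by -0.73 ± 0.71. None of the 9 passed limma's test (adjusted p = 1.00 for each) and none had an unadjusted p under 0.05. Of all 14131 genes 0% passed, with 208 at an unadjusted p under 0.05. No member had groups that did not overlap, as 7.56% of all genes did upwards and 9.38% downwards. The sign rested on 1 tumour: without passage 1 control 1 the median was 0.36, without passage 1 control 2 it was -1.43, without RANK-Fc 1 it was -0.86, and without both high tumours it was 0.10.

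In passage 2, current RANK-Fc was set against the controls of that passage. The 9 genes differed by a median of 0.15, between -0.06 for Plin1 and 0.42 ± 0.63 for Fabp4, and none passed limma's test (adjusted p = 0.999). The interval for Adipoq ran from -1.20 to 1.78, an interval that holds a 2-fold change in either direction. Here too 0% of all genes passed, with 537 at an unadjusted p under 0.05, and no member's groups were apart, against 7.56% of all genes upwards and 5.63% downwards. The median was -0.26 without passage 2 control 2, -0.08 without current tumour 1, 0.46 without passage 2 control 1, 0.30 without current tumour 3 and -0.06 without the dye term.

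In tumours with prior RANK-Fc, current treatment gave the widest gap of the RANK-Fc comparisons. All 9 genes were higher on average in prior and current tumours than in prior tumours, by a median of 1.02, where the median of all genes was 0.0032. Cfd differed by 1.94 ± 0.94 (95% interval -0.09 to 3.97, adjusted p = 0.542), Adipoq by 1.27 ± 0.62 (adjusted p = 0.546) and Fabp4 by 1.24 ± 0.56 (0.02 to 2.46, adjusted p = 0.510 by limma). Fabp4 had the only unadjusted p under 0.05 among the members (0.0474), and 1361 of all genes had one, while 0% passed after adjustment. No member's groups were apart, against 4.42% of all genes upwards and 5.34% downwards. The median was 0.16 without prior and current tumour 3, the third highest tumour in the adipocyte mean, and 1.52 without prior and current tumour 2. Without prior tumour 1, the tumour highest in muscle genes, it was 0.68.

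Averaged over the 3 settings in which current RANK-Fc was tested, the members differed by a median of 0.15, with all 9 above 0 and the widest value for Cfd at 0.55 ± 0.59 (adjusted p = 0.950 by limma). Of all genes 0% passed, with 898 at an unadjusted p under 0.05. The effect in passage 2 less that in passage 1 had a median of 0.55 over the members, and Adipoq, at 1.44 ± 0.96, had an adjusted p of 1.00. Again 0% of all genes passed, with 242 at an unadjusted p under 0.05. Leaving out passage 1 control 1 turned this median to -0.24, leaving out both high tumours gave -0.0012, and leaving out passage 1 control 2 gave 1.41. It was 0.96 without passage 1 RANK-Fc 1. The average over 3 settings was -0.18 without passage 1 control 2, 0.49 without passage 1 control 1, 0.03 without passage 1 RANK-Fc 1, 0.04 without prior tumour 1, -0.0017 without passage 2 control 2 and -0.0056 without prior and current tumour 3.

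Prior RANK-Fc alone and prior with current RANK-Fc were each compared with the same 2 passage 2 controls, which current RANK-Fc alone shares as well. In prior tumours all 9 genes were lower on average than in controls, by a median of -0.54, from -0.24 for Lipe to -0.77 for Fabp4 and Cfd, and none passed limma's test (lowest adjusted p = 0.886), as 0.00708% of all genes did. No member's groups were apart, against 12.1% of all genes upwards and 10.2% downwards. In prior and current tumours all 9 were higher on average than in controls, by a median of 0.39, with Cfd at 1.17 ± 1.08, and none passed (lowest adjusted p = 0.790 by limma), as 0.0708% of all genes did. No member's groups were apart there, against 11% of all genes upwards and 8.9% downwards. The second median was -0.29 without prior and current tumour 3, 0.07 without passage 2 control 2 and 0.91 without prior and current tumour 2, and the first stayed between -0.95 and -0.23 with any 1 tumour left out, at -0.27 without prior tumour 1.

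**Figure D4:**
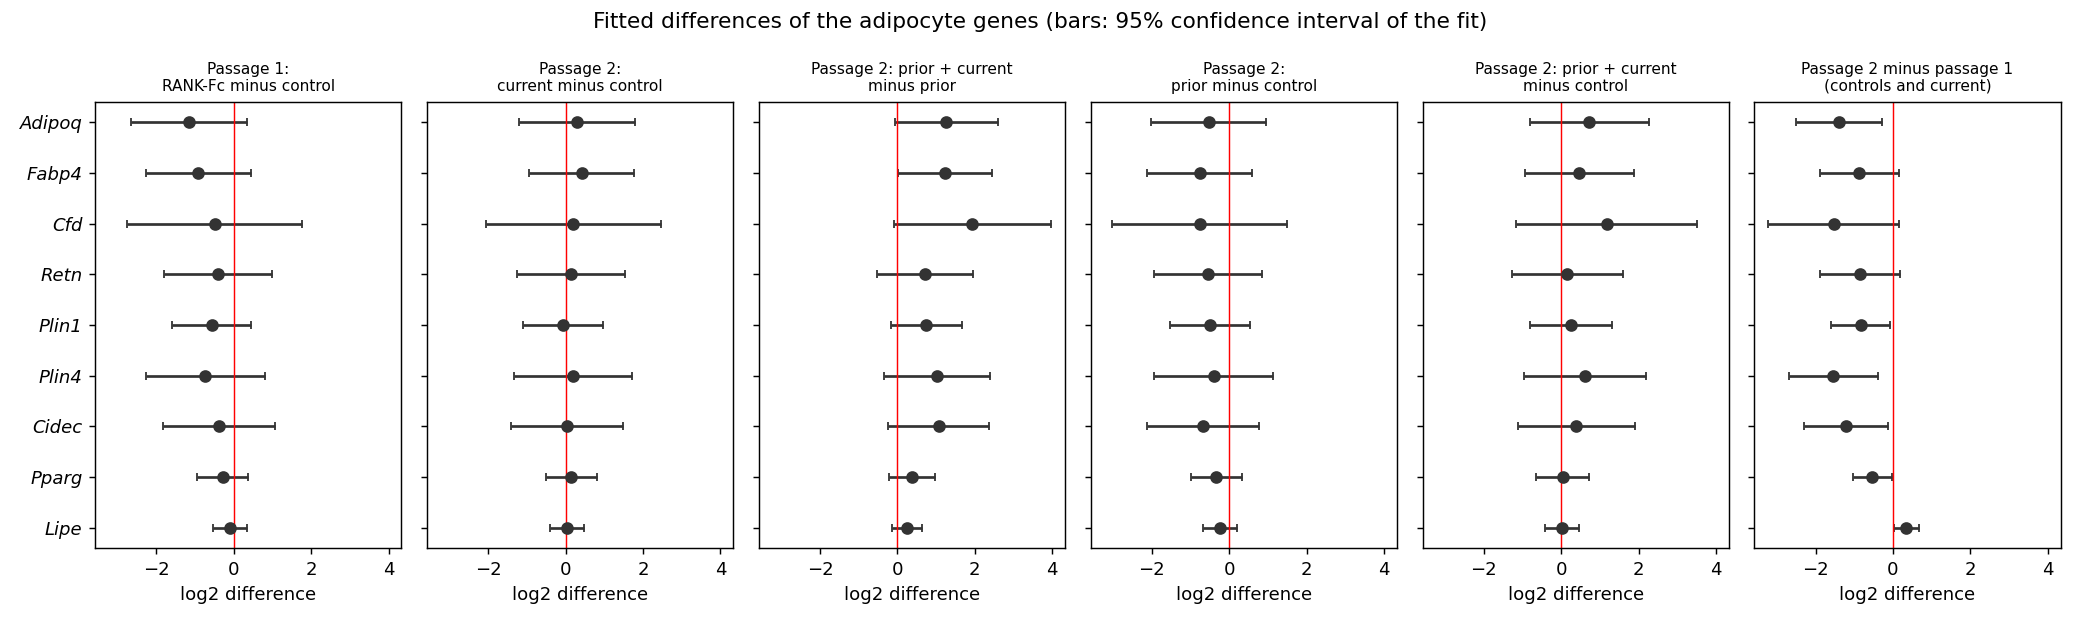
Fitted log2 differences of the 9 tested adipocyte genes in 6 comparisons; points are the limma estimates, bars their 95% confidence intervals and the red line is 0. All 9 points lie below 0 in passage 1 and for prior RANK-Fc, and above 0 for prior and current against prior, with only Fabp4 of that panel clear of 0 before adjustment.

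Between passages, the controls give the comparison without RANK-Fc. Adipoq was lower in passage 2 controls than in passage 1 controls by -2.11 ± 0.78 (adjusted p = 0.197) and Plin4 by -2.01 ± 0.80 (adjusted p = 0.240 by limma), and 8 of the 9 genes lay below 0, with a median of -1.41. Lipe alone lay above 0, at 0.28 ± 0.23 (SE, adjusted p = 0.631), and was the only member whose groups did not overlap, with 7.31 and 7.28 in passage 2 controls against 7.07 and 6.89 in passage 1 controls. Of all genes, 21.2% were apart upwards and 26.7% downwards in this comparison of 2 tumours with 2. Adipoq and Plin4 had an unadjusted p under 0.05, as 2168 of all 14131 genes did. None of the members passed after adjustment, and 3.3% of all genes did (133 higher and 333 lower, or 49 and 218 with median centring). That count over all genes was 10 without passage 2 control 2, 63 without passage 1 control 1, 91 without passage 1 control 2 and 184 without passage 2 control 1. The members' median was -0.35 without passage 1 control 1, -2.33 without passage 1 control 2 and -0.19 without both high tumours.

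A second passage comparison averaged that of the controls with that of current RANK-Fc tumours of passage 2 against RANK-Fc tumours of passage 1, and had a median of -0.87 over the members. Plin4 differed by -1.54 ± 0.53 (adjusted p = 0.0795), Adipoq by -1.39 ± 0.51 (adjusted p = 0.104), Cidec by -1.20 ± 0.50 (adjusted p = 0.146), Plin1 by -0.84 ± 0.35 (adjusted p = 0.149) and Pparg by -0.53 ± 0.23 (adjusted p = 0.157, all by limma). Lipe stood the other way at 0.34 ± 0.15 (adjusted p = 0.160). These 6 members had an unadjusted p under 0.05, as 3771 of all 14131 genes did. None of the members passed after adjustment, and 12% of all genes did (605 higher and 1090 lower, or 237 and 1020 with median centring). That count over all genes was 780 without passage 2 control 2, 911 without passage 1 control 1 and 1123 without passage 2 control 1. Without passage 1 control 2, 4 members passed: Adipoq, Plin1, Plin4 and Pparg, by -2.03, -1.34, -2.22 and -0.87. Plin4 passed without prior and current tumour 3 as well, at -1.53, whereas the median of the members was -0.41 without passage 1 control 1 and -0.12 without both high tumours. Plin1 had entered the test through 3 groups, both groups of passage 1 and the prior and current tumours. In the passage 2 groups compared here, Plin1 was not well above background in current tumour 3 and control 2.

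The mean of the adipocyte genes averaged -0.258 ± 0.668 in the 11 passage 2 tumours and 0.567 ± 1.09 in the 5 passage 1 tumours (SD), but their medians were -0.0061 and -0.11. The 2 dyes differed as well: the 8 tumours read in Cy5 averaged 0.334 ± 1.01 and the 8 read in Cy3 -0.334 ± 0.622 (SD). The members' fitted Cy5 less Cy3 term was between 0.04 for Lipe and 1.42 for Cfd, with a median of 0.88, while its 1st and 99th percentiles over all genes were -0.39 and 0.65. Both high passage 1 tumours were read in Cy5 and the other 3 in Cy3, and no tumour was read in both, so dye and tumour cannot be told apart for these genes.

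Genes of fat outside the set were followed through 7 lists of 80 genes, of which 73 were tested. Many of them did not follow the adipocyte mean closely. The median r with it over the 16 tumours was 0.49 for caveolar genes, 0.46 for adipokines and 0.37 for hormone signalling. It was 0.15 for fatty acid uptake and triglyceride synthesis, 0.09 for brown and beige fat, -0.05 for droplet genes and -0.12 for transcription factors. Among droplet genes and among transcription factors, 5 of 12 had a positive r. In the RANK-Fc comparisons none of the 73 passed, as 0% to 0.0708% of all genes did. Between 3 and 14 of the 73 had an unadjusted p under 0.05 by limma in each of them, and 208 to 1361 of all 14131 genes. For current RANK-Fc averaged over its 3 settings these counts were 14 and 898. For prior RANK-Fc against controls they were 11 and 1065, and for prior and current against controls 10 and 1236. Between the controls of the passages 5 rose and 3 fell, 11% of the 73 against 3.3% of all genes. In the second passage comparison, from which the values of the lists are taken, 9 rose and 7 fell, 21.9% of the 73 against 12% of all genes.

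In the list of droplet coat and triglyceride breakdown, 3 of 12 rose in passage 2 and none fell. Plin2 encodes the perilipin that coats droplets in cells other than fat cells. It had 15.37, 14.53 and 14.57 in prior and current tumours, 14.82, 15.79 and 14.86 in current tumours, 14.43, 14.29 and 14.86 in prior tumours and 15.28 and 15.12 in passage 2 controls. In passage 1, Plin2 had 14.16, 13.56 and 13.35 in RANK-Fc tumours and 13.64 and 13.38 in controls. All passage 2 tumours thus lay above all passage 1 tumours, as they did for 1.25% of genes, while for 1.96% they all lay below. The difference of Plin2 was 1.55 ± 0.17 (adjusted p = 0.000196 by limma), and its r with the adipocyte mean was -0.18 over the 16 tumours and 0.33 over the 11 of passage 2. Abhd5, an activator of triglyceride lipase, rose by 1.18 ± 0.21 (adjusted p = 0.0030), and Hilpda, an inhibitor of that lipase, by 0.47 ± 0.10 (adjusted p = 0.0118). Pnpla2, the lipase itself, had the highest r of this list with the adipocyte mean (0.73) and did not pass (-0.029 ± 0.10, adjusted p = 0.888 by limma). The lowest r of the list was that of Cidea, at -0.50.

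**Figure D5:**
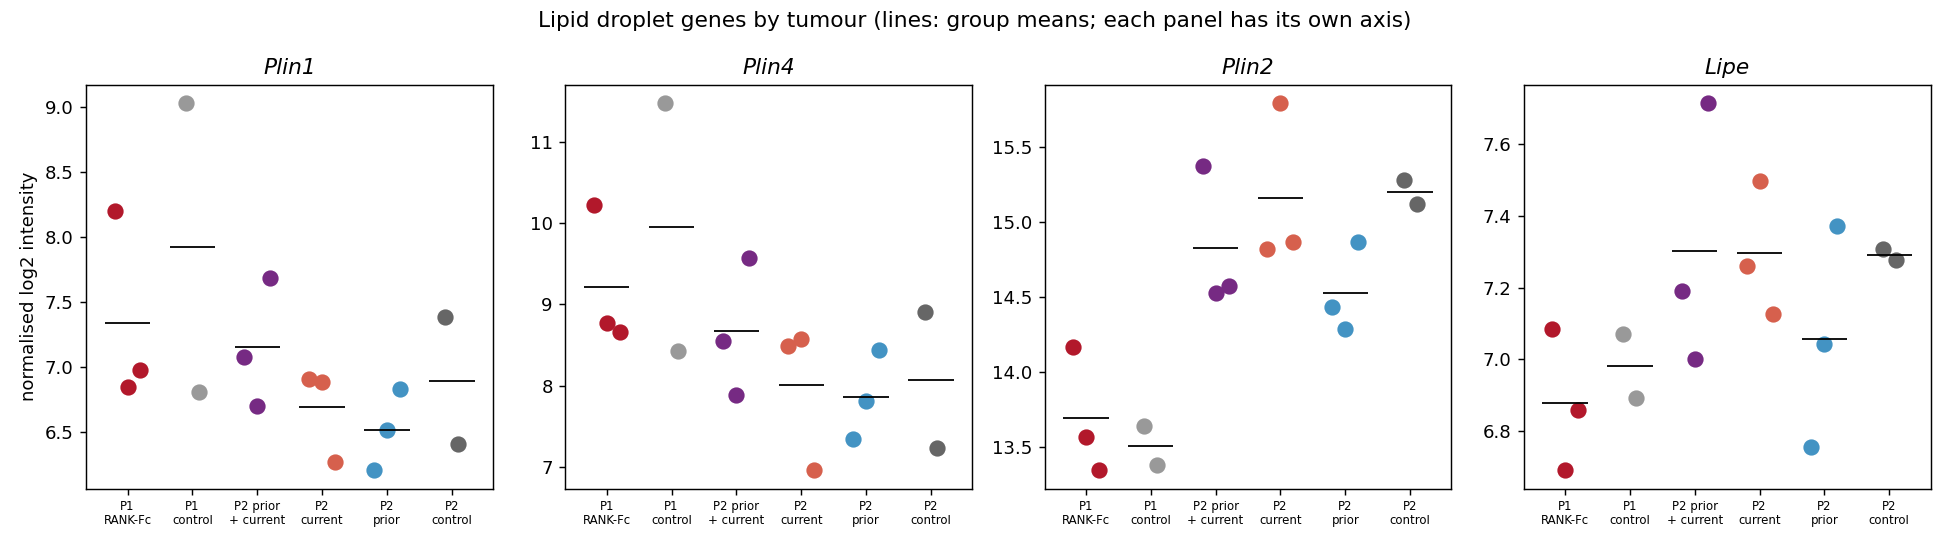
Normalised log2 intensity of Plin1, Plin4, Plin2 and Lipe in the 16 tumours by group, each panel with its own axis; lines are group means, and points below background are not marked. Plin2 lies between 14.29 and 15.79 in passage 2 and between 13.35 and 14.16 in passage 1, whereas Plin1 and Plin4 are highest in 2 passage 1 tumours.

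Of 18 genes of fatty acid uptake and triglyceride synthesis, 3 rose in passage 2 and 1 fell. Dgat2, one of the genes most like the set, fell by 1.28 (SE 0.33, adjusted p = 0.0266), whereas the fatty acid transporter Slc27a1 rose by 0.77, the phosphatidate phosphatase Lpin1 by 0.59 and Acaca, the first enzyme of fatty acid synthesis, by 0.62. Of 10 adipokines and secreted proteins, Apln was among those that rose, by 1.92, and Rbp4 did not pass at -0.85 ± 0.28 (adjusted p = 0.0694 by limma). Of 12 transcription factors, Rxra, the partner of PPAR gamma, rose by 0.39. Of 10 tested genes of hormone signalling, Irs1, the insulin receptor substrate, was among those that changed and fell by 1.29. Of 5 tested genes of brown and beige fat, Ppargc1a fell by 1.05 and Cox7a1 fell by 0.35, and Ucp1, the uncoupling protein of brown fat, was above background in 3 tumours and not tested. Of 6 caveolar genes, Cavin2 fell by 0.82 and Ehd2 fell by 0.38.

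Of these 16 genes, 6 passed with any 1 tumour left out, among them Plin2, Abhd5, Lpin1, Apln and Ppargc1a. The other 10 each lost the call without passage 1 control 1, and 9 of them lost it without passage 2 control 2. Of the 16, passage 1 RANK-Fc 2 or passage 2 control 1 left out ended the call of 6 each, passage 1 RANK-Fc 1 of 5 and passage 1 control 2 of 4. Without both high tumours 9 of the 16 did not pass. Over the other processing settings 6 lost the call in at least 1. Cox7a1 passed in 6 of 11 settings and lost its call with no background subtraction, quantile normalisation, no filter, no dye term and without both high tumours. Hilpda, Slc27a1 and Rxra did not pass with median centring, Rxra not with the mean of its probes, Dgat2 not without the dye term, and Cavin2 not with the Feature Extraction processed signals or with no filter.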

How the data were processed

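RNA of 16 tumours was measured on 8 Agilent arrays of 2 colours, 1 tumour per channel, all on 1 slide with 1 scan time. Spots had been quantified by the submitters in Agilent Feature Extraction 10.7.3.1 (named in the file headers). The deposited files give median spot and background intensity, processed intensity corrected for background, trend and dye, the log10 ratio of red over green, and other quality marks per spot, per the file headers. One more table has 8 columns that match no label and was not used. The log10 ratio followed red over green on every array (r from 0.848 to 0.933 over spots well above background).

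Median intensities were corrected with normexp (offset 50), normalised by loess within and Aquantile between arrays and kept as log2. Between 239 and 337 uneven or outlying spots per array were left out, and no member value is missing. Of 59305 non-control spots, 55681 distinct probes resulted; 28026 were named through RefSeq accessions (GRCm38.p6, used for names and for RefSeq promoter windows) and 27655 were not. A probe passed if all tumours of at least 1 group were well above background, and the brightest passing probe stood for a gene. The 16 channels were fitted in limma 3.58.1 (R 4.3.3, statmod 1.5.0) with 6 group means and a dye term by lmFit with the array as block and a bias-corrected intraspot correlation of 0.191 (0.418 uncorrected), then eBayes and Benjamini-Hochberg over 14131 genes with an adjusted p under 0.05 as threshold. Coefficients and errors equalled those of lmscFit, the function first planned, for the 14117 genes with no missing value. With 9 residual degrees of freedom, the model was first tested on simulated data. Nothing says how tumours were sampled beyond an animal code each, and the number of arrays limits the precision.

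There were 9 comparisons. All members were named; the genes most like them were the 12 with the highest r, and list genes were named where they passed or stood at an end of r, except some that are not reported here. Members, lists and tests were chosen with earlier results of these data known. The effects of 10 other processing settings, of 16 fits with 1 tumour left out and of 1 setting chosen after seeing the data (without the 2 tumours highest in the adipocyte mean) are in the closing section. Figures used Python 3.11.15 with matplotlib 3.10.9.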

Additional observations from a re-analysis of the deposited data

How the results depend on the processing

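No member passed the threshold in any of the 9 comparisons under any of the 10 other processing settings or without the 2 highest tumours. Passage 1 control 1 and RANK-Fc 1 stayed first and second in the adipocyte mean under the 5 alternatives run for it, whose range was 4.60 log2 units with the Feature Extraction processed signals against 3.24. With 1 tumour left out, the members' median ran from -1.43 to 0.36 for RANK-Fc in passage 1, from -2.33 to -0.35 between the controls of the passages and from -1.48 to -0.41 for the passage difference over controls and current RANK-Fc, in which 0 to 4 members passed. The median between the controls was -0.19 without the 2 highest tumours. Median centring moved the median of all genes by 0.16 for prior RANK-Fc, 0.21 for prior and current, -0.13 between the controls and -0.12 for the passage difference. Genes passing over the whole array ranged, over the processing alternatives and the fit without the 2 highest tumours, from 0 to 5 for prior RANK-Fc (1 as reported), 1 to 20 for prior and current (10), 50 to 556 between the controls (466) and 719 to 1764 for the passage difference (1695). With 1 tumour left out these counts ran from 0 to 6, 1 to 23, 10 to 595 and 780 to 1953, in the same order. The cause of these shifts was not tested. Dim probes such as Lep and Plin1 are limited by signal over background, and the offset of 50 compresses their differences. No paired analysis was possible because the replicate numbers were given in accession order and pair no tumours across groups.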
